A study of Mus musculus with 21 samples.

Results

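Oog1, Oog2, Oog3 and Oog4, the Oogenesin genes of the mouse, were followed from sperm and MII oocyte to blastocyst. Their members were found by gene symbol in the GENCODE vM21 annotation (build mm10). Each transcript of the merged long-read annotation was given to the gene whose exons it overlapped most on the same strand. By this rule the 4 genes, of 10917 genes with a merged transcript, held 6 of 22612 merged transcripts, 18333 of which were assigned to any gene. All 4 genes and all 6 transcripts passed the filter on low values, which asked for 2 of 12 libraries with a TPM of 1 or more. No other merged transcript lay within 5 kb of a member on either strand.

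Poly(A) RNA was sequenced as Smart-seq2 short reads in 14 libraries, 2 for each of 7 stages, and as long reads in 1 pool per stage. Sperm came from the epididymis of DBA/2J males as the labels name the strain, although the extraction text writes DBA/2N. MII oocytes were C57/BL6J, from females aged 3 to 5 weeks that had been given PMSG and then hCG at 7.5 IU each, and they were lysed at 20 h after hCG. Embryos were ♂DBA/2J x ♀C57/BL6J from females treated in the same way, and were cultured in KSOM until collection. The 1-cell group was taken at 24 to 26 h after hCG, the 2-cell group at 46 to 48 h, the 4-cell group at 54 to 58 h, the 8-cell group at 68 to 70 h and the blastocysts at 94 to 96 h. No group carried a deletion, transgene or drug treatment. Each library held pooled cells. By the methods, each stage was collected in separate batches whose cDNA was sequenced apart as short reads and mixed for the long reads. The labels do not say whether a replicate number stands for 1 batch across stages.

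Oogenesins are leucine-rich repeat proteins of the PRAME family, a group of genes that has multiplied into many near-copies in rodents. Their RNA is made in the growing oocyte, and Oog1 protein is known to enter the nucleus around the first cleavage and to bind the Ral exchange factor RalGDS. Maternal RNA of this kind is inherited by the embryo and is broken down while the embryonic genome is switched on.

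The 4 genes lie on 2 chromosomes. Oog1 is at chr12:87602688-87608850 on the plus strand, while Oog2 (chr4:144190719-144196934, plus strand), Oog3 (chr4:144157557-144162663, minus strand) and Oog4 (chr4:143437164-143450324, minus strand) stand in a PRAME cluster on chromosome 4. Proteins translated from the vM21 coding sequences were 496, 476, 500 and 502 residues long for Oog1 to Oog4. Identity between members over the global alignment ran from 52.4% for Oog2 against Oog4 to 66.1% for Oog1 against Oog3.

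The 250 bases upstream of each RefSeq transcription start were compared because members had their highest stage mean at the same stage and because long-read 5′ ends could be set against the windows. The windows are from RefSeq on GRCm38.p6, the assembly behind mm10, and all 4 members were matched by symbol. They are chr12:87602415-87602664 (plus strand) for Oog1, chr4:144190467-144190716 (plus) for Oog2, chr4:144162652-144162901 (minus) for Oog3 and chr4:143450325-143450574 (minus) for Oog4. Each is written 5′ to 3′, and capitals mark the runs of at least 8 bases that all 4 windows share.
Oog1: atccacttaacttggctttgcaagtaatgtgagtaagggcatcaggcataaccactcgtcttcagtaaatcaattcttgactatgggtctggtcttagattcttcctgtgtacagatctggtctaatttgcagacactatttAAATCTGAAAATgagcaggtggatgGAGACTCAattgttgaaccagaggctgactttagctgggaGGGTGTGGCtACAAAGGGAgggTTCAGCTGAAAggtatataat
Oog2: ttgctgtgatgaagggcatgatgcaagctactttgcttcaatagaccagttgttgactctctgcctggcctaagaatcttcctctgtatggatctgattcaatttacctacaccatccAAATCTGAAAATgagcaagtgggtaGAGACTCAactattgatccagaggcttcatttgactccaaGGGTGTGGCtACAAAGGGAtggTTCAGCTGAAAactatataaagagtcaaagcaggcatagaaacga
Oog3: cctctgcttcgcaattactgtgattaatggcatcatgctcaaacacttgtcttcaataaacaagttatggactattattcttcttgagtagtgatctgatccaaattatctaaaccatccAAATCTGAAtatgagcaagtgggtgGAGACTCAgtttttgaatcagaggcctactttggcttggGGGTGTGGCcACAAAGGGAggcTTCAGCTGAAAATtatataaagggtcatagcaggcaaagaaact
Oog4: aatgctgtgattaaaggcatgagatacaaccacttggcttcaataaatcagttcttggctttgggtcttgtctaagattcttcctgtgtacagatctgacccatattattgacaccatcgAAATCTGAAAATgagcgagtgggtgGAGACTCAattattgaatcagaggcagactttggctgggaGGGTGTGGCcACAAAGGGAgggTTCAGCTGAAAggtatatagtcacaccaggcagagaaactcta

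Identity between windows ran from 63.9% for Oog1 against Oog2 to 76.9% for Oog2 against Oog4. There were 6 shared runs, namely AAATCTGAA, CTGAAAAT, GAGACTCA, GGGTGTGGC, ACAAAGGGA and TTCAGCTGAAA, and the first of them overlaps the second in Oog1, Oog2 and Oog4. The last run, of 11 bases, holds the E-box CAGCTG and began at position -21 from the RefSeq start in Oog1, -45 in Oog2, -44 in Oog3 and -43 in Oog4. On both strands it was present in 14 of 32851 promoter windows of the same length (0.043%), which were the 4 members, 4 relatives and 6 other windows. CAGCTG alone was present in 13.0% of all windows. TATATA was found once in each member's window and in 5.2% of all windows. TAATTG, a motif bound by the oocyte homeobox factor NOBOX, was found in the Oog3 and Oog4 windows and in 7.2% of all. Of the other NOBOX elements searched, TAGTTG was found in the Oog2 window alone among members and in 5.7% of all. TAATTA was found in no member's window and in 4.8% of all. A match of letters is a description and not evidence of binding.

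Most long-read 5′ ends fell 29 to 34 bases after the first base of TATATA. The merged transcripts began 30 bases after its first base in Oog2, 34 in Oog3 and 29 in Oog4. The 5-exon Oog1 transcript began 29 bases after it, whereas the 4-exon Oog1 transcript began 18 bases before it. That more upstream end came from the long-read model of the 4-cell pool alone. The oocyte and 1-cell models of Oog1 that reached the first exon began 29 to 31 bases after TATATA.

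**Figure D1:**
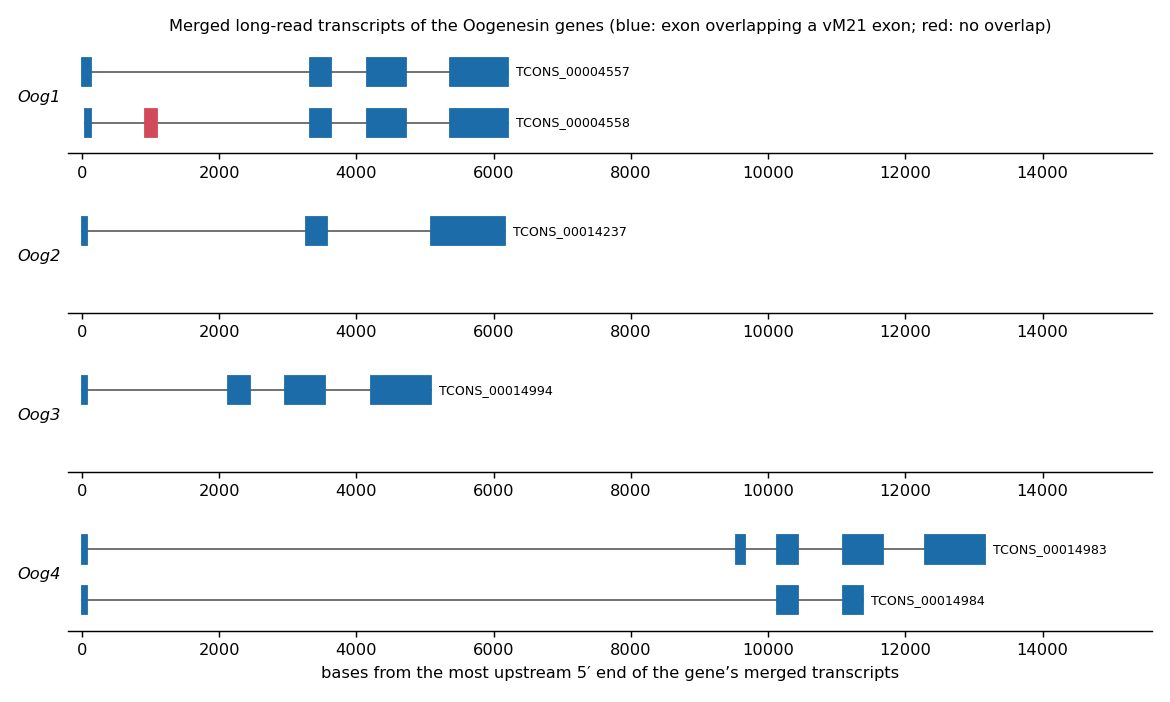
Exons (boxes) and introns (lines) of the 6 merged transcripts, with bases from the most upstream 5′ end on the x axis. Blue exons overlap a GENCODE vM21 exon, and the 183-base red exon of the 5-exon Oog1 transcript overlaps none.

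The isoforms were few. Oog1 had TCONS_00004557, with 4 exons, 1861 bases and the introns of the vM21 transcript Oog1-201, and TCONS_00004558, with 5 exons and 1997 bases. The additional exon of the latter, at chr12:87603557-87603739, is 183 bases long, lies within the first intron and is not in the vM21 models of Oog1. Oog2 had 1 transcript of 3 exons and 1457 bases (TCONS_00014237), with the introns of a vM21 Oog2 model classed as a processed transcript. Oog3 had 1 transcript of 4 exons and 1849 bases (TCONS_00014994), with the introns of Oog3-201. Oog4 had TCONS_00014983, with 5 exons, 1981 bases and the introns of Oog4-201, and TCONS_00014984, with 3 exons and 670 bases, which skips the 143-base second exon and ends inside the fourth exon of the longer form. An exon of 311 bases recurs in Oog1, Oog2 and Oog4, and its counterpart in Oog3 has 314 bases.

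Long-read models of the members were found in the oocyte, 1-cell, 2-cell and 4-cell pools only, and not in the sperm, 8-cell or blastocyst pools. The 1-cell pool held 13, the oocyte pool 5, the 2-cell pool 3 and the 4-cell pool 2, out of 7034 to 8831 models per pool. Oog3 had a model with its full 4-exon intron chain in each of these 4 pools. Oog2 and Oog4 had none in the 2-cell or 4-cell pool, and their oocyte models were fragments, a single exon of 336 bases for Oog2 and a 2-exon model of 997 bases for Oog4. There was 1 pool per stage, so these counts have no replicate error.

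Gene values are the summed TPM (a share of the library's transcripts, corrected for transcript length) of a gene's merged transcripts. TPM is relative to all other transcripts of a library, and in pooled embryos fewer cells with an RNA and less of it per cell cannot be told apart. The deposited TPM hold no read counts. Read totals are listed in the supplement, where 2-cell replicate 2 is the deeper of its pair, and they were not used here. The 5 oocyte markers (Zp1, Zp2, Zp3, Gdf9, Bmp15) summed to 4410 and 15894 TPM in oocytes and to at most 15.2 in 8-cell embryos and blastocysts. The 6 sperm markers summed to 14026 and 20770 TPM in sperm and to at most 17.0 elsewhere. The 5 markers of the 2-cell stage (Zscan4c, Zscan4d, Zfp352, Tcstv3 and Gm8300) summed to 394 TPM in 2-cell replicate 2 and to at most 25.1 in each other library, so 2-cell replicate 1 did not stand above other stages. Of 10 cumulus and granulosa markers only Ptgs2 had a merged transcript, at 0.5 TPM or less outside sperm, where it reached 5.4. The 2-cell replicates stood apart from each other. Over 10000 tested genes the correlation of log2(TPM + 1) between replicates was 0.679 at the 2-cell stage against 0.879 to 0.979 at the 5 other embryonic and oocyte stages, and the median gene was 0.98 higher in 2-cell replicate 2. Changes that turn on 1 of these libraries are given without it.

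Oog3 was the most abundant Oogenesin in each of the 8 libraries from oocyte to 4-cell. It reached 1881 and 636 TPM in oocytes, 2293 and 1729 in 1-cell embryos, 132 and 2019.3 in 2-cell embryos and 94.6 and 85.6 in 4-cell embryos. It was the 36th and 58th highest of 10917 genes in the 1-cell libraries and the 17th highest in 2-cell replicate 2. In 8-cell embryos it was at 0.67 and 0.31 TPM, in blastocysts at 0.29 and 0.05 and in sperm at 0.15 and 0.23. The order of its stage means was 1-cell, oocyte, 2-cell, 4-cell and 8-cell, followed by sperm and blastocyst. Libraries of the first 3 stages overlapped each other, and the 4-cell and 8-cell libraries overlapped no stage above or below them.

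Oog4 and Oog1 came next in level. Oog4 was at 163 and 139 TPM in oocytes, 270 and 663 in 1-cell embryos, 2.25 and 16.5 in 2-cell embryos and 1.78 and 2.32 in 4-cell embryos. Oog1 was at 144 and 78.3 TPM in oocytes, 276 and 298 in 1-cell embryos, 32.9 and 171 in 2-cell embryos and 22.2 and 21.9 in 4-cell embryos. Both were below 1 TPM in every 8-cell, blastocyst and sperm library. Neither gene's oocyte libraries overlapped its 1-cell libraries. The 2-cell libraries of Oog4 lay below all its oocyte libraries and overlapped its 4-cell libraries, whereas those of Oog1 overlapped its oocyte libraries and lay above its 4-cell libraries.

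Oog2 was the least abundant of the 4 in oocytes and 1-cell embryos. It was at 17.1 and 10.7 TPM in oocytes, 37.2 and 63.9 in 1-cell embryos, 3.29 and 43.6 in 2-cell embryos and 5.18 and 3.75 in 4-cell embryos. At the 8-cell stage both libraries were at 0.03 TPM, and sperm and blastocysts were listed at 0. Its 2-cell libraries spanned the range from its 1-cell to its 4-cell values.

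**Figure D2:**
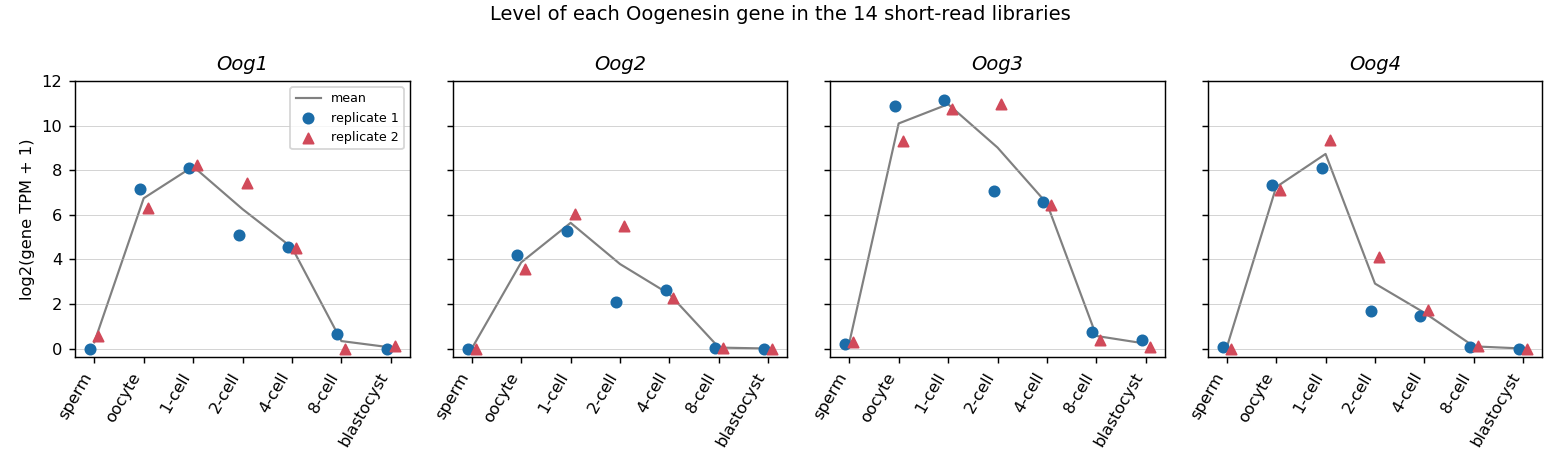
log2(gene TPM + 1) of each member (y axis) by stage (x axis), with circles for replicate 1, triangles for replicate 2 and a grey line through the mean of the 2 values. Each gene is highest at the 1-cell stage and near 0 from the 8-cell stage on, and the replicates are farthest apart at the 2-cell stage.

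Summed over the 4 genes, Oogenesin RNA was 0.221% and 0.0864% of all TPM in oocytes and 0.288% and 0.275% in 1-cell embryos. It was 0.017% in 2-cell replicate 1 and 0.225% in 2-cell replicate 2, and it was 0.0124% and 0.0114% in 4-cell embryos. Replicate 1 of the 2-cell stage thus stood nearer the 4-cell level and replicate 2 nearer the 1-cell level.

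Changes between stages were tested by limma on log2(TPM + 1) values, fitted over 10000 genes and the 12 libraries from oocyte to blastocyst. Benjamini-Hochberg adjustment was over all genes, with a call at an adjusted p under 0.05. Each gene has 1 spread shared by all stages of the fit, so its SE is the same at each step. It is not the spread of the step in question, and the 2-cell libraries enter it throughout. From oocyte to 1-cell embryo each member's fitted change was positive, by 1.43 ± 0.78 (SE) for Oog1, 1.77 ± 0.88 for Oog2, 0.86 ± 1.01 for Oog3 and 1.49 ± 0.80 for Oog4 on the log2 scale. None was called (limma adjusted p from 0.581 to 0.971). 3 of 4 members (Oog1, Oog2 and Oog4) had both 1-cell libraries above both oocyte libraries, as had 28.6% of all genes. For Oog2 this order rests on the merged annotation. In the TPM set computed for each stage on its own long-read transcripts, Oog2 was at 55.4 and 13.7 TPM in oocytes and 26.9 and 48.3 in 1-cell embryos, which overlap. Those values rest on a single-exon model of 336 bases in oocytes and a 3-exon model of 1439 bases in 1-cell embryos. They are therefore not measured on the same target. Of all genes 0.38% were called in this comparison, and the median gene changed by 0.23. At the transcript level 0 of 6 were called, against 2.0% of 20250 transcripts.

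From 1-cell to 2-cell embryo Oog4 fell, and it was the only member called. Its fitted change was -5.82 ± 0.80 on the log2(TPM + 1) scale (limma adjusted p = 0.000226), and it was called in all 24 alternative fits, with changes from -7.03 to -4.6. The SE of the Oog4 change was larger, at 1.15, in a fit on the 4 libraries of the contrast, and 1.03 with the spread weighted by stage. Oog1 changed by -1.92 ± 0.78 (adjusted p = 0.0746), Oog2 by -1.85 ± 0.88 (adjusted p = 0.122) and Oog3 by -1.94 ± 1.01 (adjusted p = 0.159). Of all genes 6.2% were called lower in this comparison and the median gene rose by 0.72, so 1 of 4 members stands against that background. Both 2-cell libraries lay below both 1-cell libraries for Oog1 and Oog4, 2 of 4 members, and for 15.4% of all genes.

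Oog4 was also lower against Oog3 within each 2-cell and 4-cell library than within each earlier one. The ratio of Oog4 to Oog3 TPM was 0.0866 and 0.218 in oocytes and 0.118 and 0.384 in 1-cell embryos, but 0.0171 and 0.00815 in 2-cell embryos and 0.0188 and 0.0272 in 4-cell embryos. The ratio does not depend on how each library was scaled, and its values before and after the first cleavage did not overlap. The same ratio for Oog1 was between 0.0764 and 0.173 in oocytes and 1-cell embryos and between 0.0845 and 0.257 in 2-cell and 4-cell embryos, which overlap. The ratio was chosen after its values had been seen, so no test is given.

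The other members' changes at this step turned on which 2-cell library was read. Replicate 2 was higher than replicate 1 by 2.34 for Oog1, 3.38 for Oog2, 3.93 for Oog3 and 2.42 for Oog4 on the log2 scale, against 0.98 for the median gene. Over 38 maternal genes (a list of oocyte genes described further on) the median difference was 2.74, and the summed oocyte markers were 73.6 TPM in replicate 1 and 708 in replicate 2. The part of these, of the 2-cell markers and of read depth in the result was not tested. Without replicate 2 the changes from 1-cell to 2-cell embryo were -3.09 for Oog1, -3.54 for Oog2, -3.91 for Oog3 and -7.03 for Oog4. The median gene changed by 0.3 in that fit. Without replicate 1 they were -0.75 for Oog1, -0.16 for Oog2, 0.02 for Oog3 and -4.60 for Oog4, against 1.12 for the median gene. Each of these fits rests on 1 library for the 2-cell stage.

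**Figure D3:**
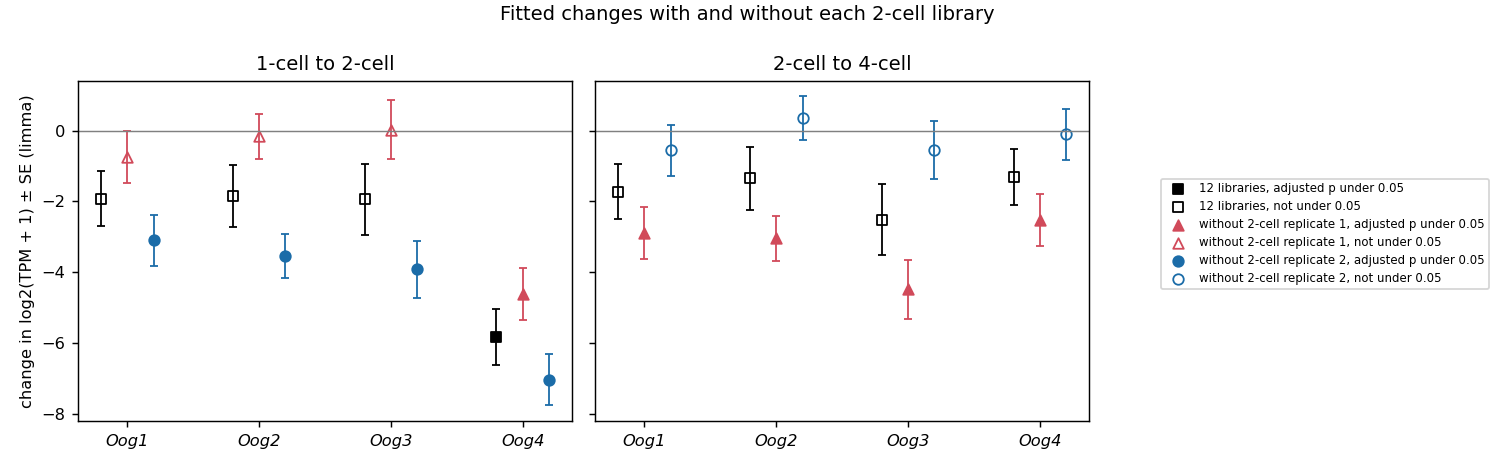
Fitted change in log2(TPM + 1) with its standard error (y axis) for each member (x axis), from 1-cell to 2-cell (left) and from 2-cell to 4-cell (right), with all 12 libraries (squares), without 2-cell replicate 1 (triangles) and without 2-cell replicate 2 (circles). Filled symbols have a limma adjusted p under 0.05. Oog4 lies lowest in all 3 fits on the left. The fits without a library rest on 1 library for the 2-cell stage, so their filled symbols are not to be counted against the 12-library fit.

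From 2-cell to 4-cell embryo no member was called (0 of 4, against 1.82% of all genes called lower). The fitted changes were -1.72 ± 0.78 for Oog1, -1.35 ± 0.88 for Oog2, -2.51 ± 1.01 for Oog3 and -1.31 ± 0.80 for Oog4 (limma adjusted p from 0.151 to 0.346). 2 of 4 members, Oog1 and Oog3, had both 4-cell libraries below both 2-cell libraries, as had 22.1% of all genes. Without 2-cell replicate 1 the changes ran from -4.47 to -2.52, against -0.2 for the median gene. Without 2-cell replicate 2 they ran from -0.55 to 0.34, against 0.5 for the median gene.

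From 4-cell to 8-cell embryo Oog3 and Oog1 fell. Oog3 changed by -5.95 ± 1.01 (limma adjusted p = 0.0101) and Oog1 by -4.20 ± 0.78 (adjusted p = 0.015). Oog2 changed by -2.39 ± 0.88 (adjusted p = 0.193) and Oog4 by -1.51 ± 0.80 (adjusted p = 0.389), both from levels of a few TPM, where the added pseudocount of 1 keeps a change small. Both were called in a fit on the 4 libraries of the contrast (limma adjusted p = 0.00647 and 0.00922). Both were also called with the spread weighted by stage (3.03e-05 and 0.00205). Their SE was smaller in these fits, at 0.23 and 0.19 in the former and 0.34 and 0.35 in the latter. No share of all genes called is given for either fit, so these calls have no background to be set against. In the unweighted fit over all stages 0.9% of all genes were called lower, against 2 of 4 members. Both 8-cell libraries lay below both 4-cell libraries for 4 of 4 members and for 47.3% of all genes. Leaving out either 4-cell or either 8-cell library ended the calls of Oog3 and Oog1. The changes then ran from -6.12 to -5.77 for Oog3 and from -4.53 to -3.86 for Oog1. Leaving out either 2-cell library left the 4 changes as they were, although whether Oog2 was called depended on it.

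From 8-cell embryo to blastocyst the members were at or near 0 on both sides and none was called, against 3.0% of all genes in either direction. Across the whole course, from oocyte to blastocyst, 4 of 4 members fell, against 18.0% of all genes called lower and a median gene that rose by 0.82. Oog3 changed by -9.88 ± 1.01 (limma adjusted p = 6.84e-06) and Oog1 by -6.70 ± 0.78 (adjusted p = 1.56e-05). Oog2 and Oog4 were listed at 0 in both blastocyst libraries, so no fold is given, with adjusted p of 0.00209 and 1.08e-05. These 4 calls stood in all 24 alternative fits.

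The isoforms of Oog1 and Oog4 were also followed apart. The 4-exon Oog1 transcript was at 84.8 and 43.1 TPM in oocytes, 115 and 191 in 1-cell embryos, 13.0 and 24.5 in 2-cell embryos and 1.23 and 1.56 in 4-cell embryos. The 5-exon Oog1 transcript was at 59.1 and 35.2 TPM in oocytes, 161 and 107 in 1-cell embryos, 19.8 and 146 in 2-cell embryos and 21.0 and 20.4 in 4-cell embryos. The 4-exon form thus declined at both steps after the 1-cell stage in both libraries, while the 5-exon form in 2-cell replicate 2 was within its 1-cell range. The share of the 5-exon form in Oog1 TPM was 41.1% and 45.0% in oocytes, 58.3% and 36.0% in 1-cell embryos, 60.3% and 85.7% in 2-cell embryos and 94.5% and 92.9% in 4-cell embryos.

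In the fit over 20250 transcripts, 3 of 6 Oogenesin transcripts fell from 1-cell to 2-cell embryo, against 5.11% of all transcripts. They were the 4-exon Oog1 transcript (-2.98 ± 0.66, limma adjusted p = 0.00646) and both Oog4 transcripts, the 5-exon form by -5.29 ± 0.88 (adjusted p = 0.00141) and the 3-exon form by -6.36 ± 0.64 (adjusted p = 0.000465). The 5-exon Oog1 transcript changed by -1.26 ± 0.86 (adjusted p = 0.296). In a fit on the 4 libraries of the contrast none of the 6 was called. Without 2-cell replicate 1 the 4-exon Oog1 transcript changed by -2.55 and the 5-exon one by 0.15. The 5-exon and 3-exon Oog4 transcripts then changed by -3.82 and -6.18. From 2-cell to 4-cell embryo 1 of 6 fell, again the 4-exon Oog1 transcript (-2.98 ± 0.66, adjusted p = 0.0406), against 1.17% of all. That call was kept in 9 of 19 alternative fits, with adjusted p from 0.0143 to 0.311, and it was lost without either 4-cell library (0.311 and 0.276) or either 8-cell library (0.0828 and 0.083). Without 2-cell replicate 1 the changes of the 6 ran from -4.47 for Oog3 to -0.93 for the 3-exon Oog4 transcript. From 4-cell to 8-cell embryo 2 of 6 fell, the 5-exon Oog1 transcript (-4.10 ± 0.86, adjusted p = 0.0215) and the Oog3 transcript (-5.95 ± 1.07, adjusted p = 0.00985), against 2.44% of all, and neither was called when a 4-cell or an 8-cell library was left out. From 8-cell embryo to blastocyst 0 of 6 were called, against 2.11% in either direction. From oocyte to blastocyst 6 of 6 fell, against 16.3% of all.

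**Figure D4:**
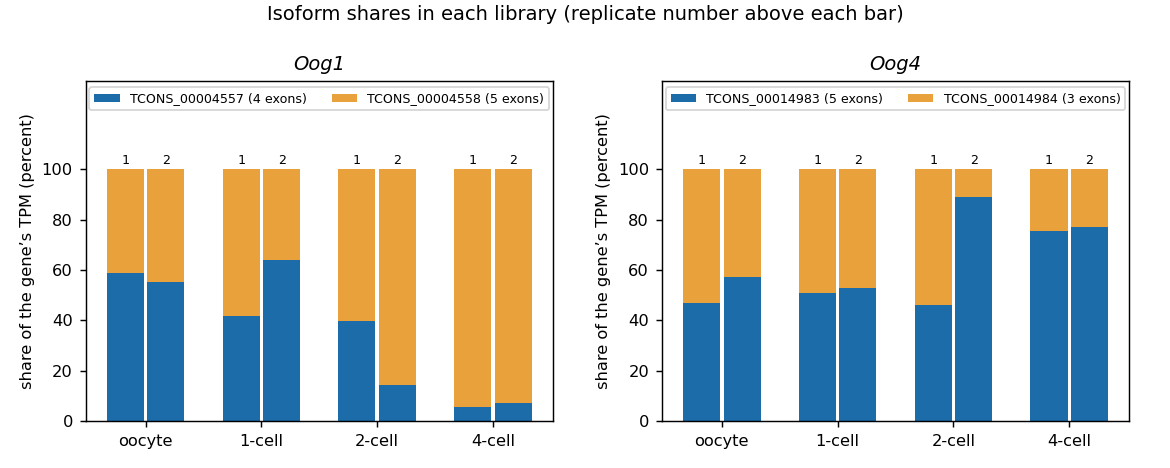
Share of each isoform in the TPM of Oog1 (left) and Oog4 (right) in percent (y axis), by stage (x axis), with 1 bar for each library and its replicate number above. The 5-exon form makes up 94.5% and 92.9% of Oog1 TPM at the 4-cell stage. The 5-exon form of Oog4 makes up 46.2% and 89.0% at the 2-cell stage and 75.6% and 77.1% at the 4-cell stage.

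Whether the 2 Oog1 forms changed by different amounts was tested as their log ratio, in a limma fit over 8230 ratios of an isoform to the other isoforms of its gene. The log2 ratio of the 5-exon to the 4-exon form changed by 1.72 ± 0.69 from 1-cell to 2-cell embryo (limma adjusted p = 0.12), where 16.9% of all ratios were called, and by 1.63 ± 0.69 from 2-cell to 4-cell embryo (adjusted p = 0.265), where 0.243% were called. Neither passed the threshold. The first was 2.70 (adjusted p = 0.0249) without 2-cell replicate 1 and 0.74 (adjusted p = 0.458) without replicate 2, and the second was 0.65 (0.663) and 2.61 (0.07). From 4-cell to 8-cell embryo the fitted ratio changed by -2.85 ± 0.69 (limma adjusted p = 0.109, with 0.389% of ratios called). At the 8-cell stage the 5-exon form was at 0.59 and 0 TPM and the 4-exon form at 0 in both libraries. The pseudocount of 1 added to each form then holds the ratio near 0, so this change does not measure isoform use. For the same reason its call in 4 of 17 alternative fits is not read as a change in use. In the long-read pools the chain of introns of the 5-exon form was found in 1-cell embryos, and that of the 4-exon form in oocytes and in 4-cell embryos, so the 4-cell pool held the 4-exon chain while short reads gave most of the TPM to the 5-exon form.

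For Oog4 the 5-exon form made up 47.0% and 57.2% of TPM in oocytes and 50.9% and 52.9% in 1-cell embryos. At the 2-cell stage it was 46.2% in replicate 1 and 89.0% in replicate 2, out of 2.25 and 16.5 TPM, and at the 4-cell stage 75.6% and 77.1%. The log2 ratio of the 3-exon to the 5-exon form changed by -1.07 ± 0.73 from 1-cell to 2-cell embryo (limma adjusted p = 0.358), with -2.36 (adjusted p = 0.0156) without 2-cell replicate 1 and 0.23 (adjusted p = 0.787) without replicate 2.

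Reads of Oog1 and Oog2 are hard to tell from those of other genes. Of the 31-base words in the vM21 transcripts of Oog1, 93.4% occurred in a transcript of another gene, and for Gm2042 alone the share was 90.2%. The share was 43.0% for Oog2, mostly with Gm13084 (39.6%), 26.9% for Oog3 and 2.22% for Oog4. Genes with at least 90% protein identity to a member were Gm2042 (99.8%), Gm10436 (98.6%), Gm13023 (92.5%) and C87977 (92.3%) for Oog1 and Gm13084 (97.9%) for Oog2, and each had its own merged transcripts. Gm2042 has, as Oog1 has, a 5-exon and a 4-exon merged transcript, of 2016 and 1817 bases. The separate values of Oog1 and its copies, and of the Oog1 isoforms, are uncertain to that extent.

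Summing Oog1 and Oog2 with these copies takes out the division among them, but not words shared with other genes. Oog2 shares 16.2% of its words with Gm7201, and Oog3, which had no copy to be summed with, 22.9% with Gm4350. Oog1 with its 4 copies was at 818 and 482 TPM in oocytes, 1598 and 2096 in 1-cell embryos, 177 and 1118 in 2-cell embryos and 138 and 133 in 4-cell embryos. Oog2 with Gm13084 was at 51.5 and 36.2 TPM in oocytes, 138 and 273 in 1-cell embryos, 7.9 and 96.8 in 2-cell embryos and 12.6 and 11.7 in 4-cell embryos. As sums, Oog2 was called lower from 1-cell to 2-cell embryo (-2.73, limma adjusted p = 0.0347), Oog1 was not (-2.04, adjusted p = 0.0858), and from 4-cell to 8-cell embryo Oog1 was (-5.30, adjusted p = 0.00853). The Oog2 sum had an adjusted p of 0.295 from 1-cell to 2-cell embryo without 2-cell replicate 1 and of 0.000288 without replicate 2 (-4.46), and the Oog1 sum one of 0.534 (-0.71) and 0.00558 (-3.36). In the TPM set computed stage by stage, Oog1 was at 380 and 537 TPM in 1-cell embryos and 45.1 and 44.1 in 4-cell embryos, and Oog3 at 1494.8 and 1179 and at 82.8 and 75.0 TPM.

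Relatives of the Oogenesins were parted into early and late genes by the stage of their highest mean. The family list held 45 genes, 35 by protein identity of at least 40% over at least 80% of a member and 10 by a symbol beginning with Prame. Of these, 24 had a merged transcript and all 24 were tested. 10 had their highest stage mean in oocytes or 1-cell embryos, as the Oogenesins had, and 14 at the 2-cell stage or later. The line is not sharp for each gene. The 1-cell libraries of D5Ertd577e and Pramef8, counted late, overlapped those of their highest stage. Those of Gm10436, counted early, overlapped its 2-cell libraries. From 1-cell to 2-cell embryo 6 of 24 fell, against 6.2% of all genes, namely C87499 (-3.68 ± 0.87), C87977 (-3.54 ± 0.81), Gm13084 (-3.07 ± 0.89), Gm13023 (-3.06 ± 0.83), Gm2042 (-2.35 ± 0.81) and Pramef20 (-2.24 ± 0.67). In the same step 10 of 24 rose, against 26.1% of all genes, among them Pramel6 (3.91 ± 0.84), a PRAME gene linked to naive pluripotency, Pramel4 (3.63 ± 0.91), Pramel5 (2.76 ± 0.88) and Pramel7 (2.63 ± 0.87). The family's median change was 0.11, against 0.72 for all genes. Without 2-cell replicate 2 the family's median was -0.88, against 0.3 for all genes. Without replicate 1 it was 1.09, against 1.12.

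Relatives also changed at later steps. From 4-cell to 8-cell embryo 4 of 24 fell, against 0.9% of all genes, namely Gm10436 (-5.26 ± 0.82), Gm2042 (-4.54 ± 0.81), Gm13023 (-3.60 ± 0.83) and Gm13119 (-2.59 ± 0.59), and none rose. The lower count grew when either 2-cell library was left out, with the family's median at -1.3 in each fit, against -0.34 for all genes. From 2-cell to 4-cell embryo 1 rose, Gm13102 (3.96 ± 0.84), against 1.58% of all genes, and none fell. The family's median at this step was -1.52 without 2-cell replicate 1, against -0.2 for all genes. Without replicate 2 it was 1.01, against 0.5. From 8-cell embryo to blastocyst 1 fell, E330014E10Rik (-3.35 ± 0.85), against 3.0% of all genes called in either direction. From oocyte to blastocyst 10 of 24 fell, against 18.0% of all genes, and 6 rose, against 35.4%. Pramel6 was at or below 0.1 TPM in oocytes and 1-cell embryos, at 133 and 117 in 4-cell embryos and at 246 and 46.8 in blastocysts. Gm2042 was at 213 and 138 TPM in oocytes, 378 and 560 in 1-cell embryos and 0.2 TPM or less in blastocysts.

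**Figure D5:**
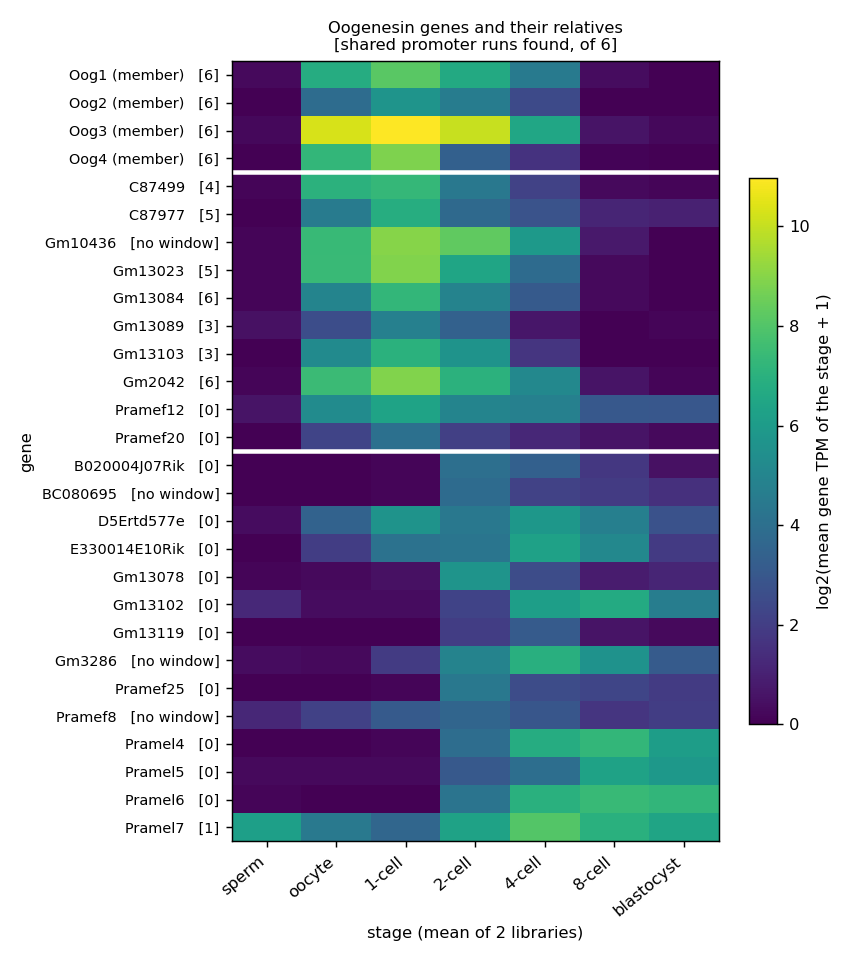
log2(mean gene TPM of the stage + 1) (colour) of the 4 members and the 24 relatives with a merged transcript (rows), by stage (columns). White lines part the members, the 10 relatives highest in oocytes or 1-cell embryos and the 14 highest later, and the number in brackets is how many of the 6 shared upstream runs the gene's promoter window held.

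The runs shared by the 4 upstream windows were looked for in the relatives as well, after their levels had been seen. RefSeq windows were matched for 32 of the 45 family genes, older symbols being looked up among RefSeq synonyms. Among the 10 early relatives, 9 had a window and 7 of these held at least 3 of the 6 runs, with all 6 in Gm2042 and Gm13084, 5 in C87977 and Gm13023, 4 in C87499 and 3 in Gm13089 and Gm13103. The early genes Pramef12 and Pramef20 held none. Among the 14 late relatives, 11 had a window, 0 held 3 or more runs and 10 held none. Late relatives chosen by protein identity were 40.3% to 46.9% identical to their closest member, and early ones 63.2% to 99.8%. The runs thus went with closeness to the members as well as with stage, and the 2 cannot be told apart. These genes share descent, so they are not independent cases and no test is given.

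The genes whose pattern over the 14 libraries was most like that of a member were chosen by Pearson's r of log2(TPM + 1) among 9603 genes with a stage mean of at least 10 TPM. The libraries share stages, so r is given as a description. Near-copies can exchange TPM, so r between them does not compare separate measurements. Oog1 shared 90.2% of its words with Gm2042, 72.1% with Gm10436 and 26.7% with Gm13023. Oog2 shared 39.6% with Gm13084 and 0.16% with Gm13023. Oog3 shared 0.87% with Gm2042 and 0.05% with Gm10436. The part of shared words in r was not tested. Nearest to Oog1 were Gm2042 (r = 0.998), Oog3 (0.996), Gm10436 (0.993), Gm13023 and Gm17751 (0.991 each). Nearest to Oog3 were Oog1 (0.996), Gm2042 (0.995), the oocyte secreted protein gene Oosp1 (0.992), Gm10436 (0.99) and Khdc1b (0.989). Nearest to Oog2 were Gm13084 (0.992) and Fbxw15, Magea10 and the transcription factor gene Bach2 (0.982 each), with Gm13023 at 0.981. Nearest to Oog4 were no other Oogenesins but Nlrp4b, of the NLRP family (0.994), the oligoadenylate synthetase gene Oas1h (0.99), C87499 (0.983), Fbxw22 (0.981) and Gm47847 (0.98). Between members r ran from 0.885 for Oog3 and Oog4 to 0.996 for Oog1 and Oog3. Nlrp4b and Oas1h had stage means of 108 and 228 TPM in 1-cell embryos and of 6.3 and 9.4 TPM in 2-cell embryos. Over the 12 libraries without the 2-cell stage the members' nearest genes kept r of 0.98 or more, but the order moved, with Nlrp4b in place 5 and Gm47847 in place 43 for Oog4, and r between members ran from 0.936 to 0.996.

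A list of 40 oocyte genes, of which 38 were tested, was set beside the Oogenesins. From oocyte to 1-cell embryo the median maternal gene changed by 0.13, the median of the 4 members was 1.46 and that of all genes 0.23. 1 maternal gene was called, lower, against 0.38% of all genes in either direction. From 1-cell to 2-cell embryo 21 of 38 maternal genes fell, against 6.2% of all genes. The median was -3.16, against -1.93 for the members and 0.72 for all genes. From 2-cell to 4-cell embryo 2 of 38 were called lower, against 1.82% of all genes, with a median of -1.68 against 0.04 for all genes. Without 2-cell replicate 1 the median was -3.25, against -0.2, and without replicate 2 it was 0.03, against 0.5. From 4-cell to 8-cell embryo 0 of 38 were called, against 0.9% of all genes called lower, with a median of -2.12 against -3.30 for the members and -0.34 for all genes. In that fit 35 of the 38 changes were below 0 and 3 were above, so the count of 0 is not an absence of falls. That count of 0 rose when either 2-cell library was left out, while the median stayed at -2.12. From oocyte to blastocyst 35 of 38 fell, against 18.0% of all genes, and 1 rose, against 35.4%. The median was -7.01, against 0.82 for all genes. Without 2-cell replicate 2 the maternal median from 1-cell to 2-cell embryo was -4.47, against 0.3 for all genes. Without replicate 1 it was -1.4, against 1.12. The difference between the lists was not tested.

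The 3 maternal genes with the highest oocyte means were above the Oogenesins in level in oocytes. Bcl2l10, an apoptosis regulator of the oocyte, was at 16455 and 22401 TPM in oocytes, 16659 and 4955 in 1-cell embryos and 84.0 and 252 in 2-cell embryos. The linker histone gene H1foo was at 12322 and 12737 TPM in oocytes, 3542 and 1401 in 1-cell embryos and 5.9 and 111 in 2-cell embryos. Tcl1, a coactivator of the kinase AKT, was at 19019 and 4360 TPM in oocytes, 16982 and 4767 in 1-cell embryos and 108 and 2609 in 2-cell embryos. From oocyte to 1-cell embryo the libraries of Bcl2l10 and Tcl1 overlapped and those of H1foo did not.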

How the data were processed

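The authors clustered and polished the long reads of 1 pool per stage, mapped them to mm10 and merged them into 1 annotation, and quantified the short-read libraries on it with Salmon as deposited TPM. The submitters' processing notes also name GSNAP, STAR and Cufflinks. Long reads were compared by the authors with GENCODE vM20, whereas vM21 was used here. Merged transcripts were assigned to genes by exon overlap on the same strand, gene TPM was summed, and 8-cell replicates were named by their titles, which number them opposite to the files. limma 3.58.1 (R 4.3.3) was fitted with a trend to log2(TPM + 1) over stage, with sperm left out of the fit and given as values. The fit was also run on simulated data with equal noise at each stage, which does not test it for a noisier 2-cell stage. Because salmon divides reads that fit several transcripts, and only over transcripts that long reads found, near-copies can exchange TPM. Family members were found with blastp 2.17.0+ on proteins translated from vM21 transcripts, since no protein table was used here. Values in the text are for the members and their transcripts, the family, maternal and neighbour lists, and the 5 genes most like each member. The members and lists were chosen with earlier results of these data known. Alternatives were another pseudocount, filters, quantile normalization, a replicate block, weights, fits on 4 libraries, each library left out and 2 rules of assignment. The sums with near-copies, the isoform ratios and the correlations without the 2-cell stage were chosen after seeing the data.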

Additional observations from a re-analysis of the deposited data

How the results depend on the processing

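The oocyte to blastocyst counts (4 genes, 6 transcripts), and the counts of 0 from oocyte to 1-cell embryo and from 8-cell embryo to blastocyst, held in every alternative run. From 1-cell to 2-cell embryo the gene count of 1 became 2 with quantile normalization 2 with near-copies summed and 4 with near-copies summed and 2-cell replicate 2 left out, and the transcript count of 3 became 0 in a fit on the 4 libraries of the contrast. From 2-cell to 4-cell embryo the gene count of 0 became 4 with near-copies summed and 2-cell replicate 1 left out, and the transcript count of 1 became 0 with a pseudocount of 0.1, in the 4-library fit, with the spread weighted by stage and with the replicate block. From 4-cell to 8-cell embryo the gene count of 2 became 4 in the 4-library fit and 4 with the spread weighted by stage, and the transcript count of 2 became 4 with a pseudocount of 0.1, 6 in the 4-library fit and 5 with the weights. No share of all genes or transcripts called is given for these alternatives. Their counts only show how far a call depends on the processing, and the cause was not tested.

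With 1 library left out, the lone library of its stage being assumed to vary like the others, the gene counts ranged from 1 to 4 (1-cell to 2-cell), 0 to 4 (2-cell to 4-cell) and 0 to 3 (4-cell to 8-cell), and the transcript counts from 2 to 6, 0 to 5 and 0 to 3. The gene count of 4 at the first of these steps came without 2-cell replicate 2, and the gene count of 4 at the second without 2-cell replicate 1. No share of all genes called is given for these fits, so their counts only show how far a call depends on 1 library. No change was called in opposite directions under any alternative.

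The replicate block changed no other call. The correlation of replicate deviations between stages ran from -0.55 to 0.48 and was over 0.1 in 5 of 15 pairs of stages. These mixed signs do not settle whether libraries with the same replicate number share a batch. Against each stage's own long-read transcripts, 6 of 12 stage means of members moved by more than the SD of the libraries, among them Oog1 in 1-cell embryos, from 287 to 458 TPM.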

Other observations

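Of 63 protein-coding genes within 500 kb of an Oogenesin gene, 38 were not in the family list, and 19 of these had a merged transcript. From 1-cell to 2-cell embryo 0 of the 19 were called lower and 11 were called higher, against 6.2% and 26.1% of all genes, with a median change of 3.07 on the log2(TPM + 1) scale against 0.72 for all genes. Without 2-cell replicate 2 the median change was 1.61, against 0.3 for all genes. Without replicate 1 it was 3.23, against 1.12. From oocyte to blastocyst 0 were called lower and 5 higher, against 18.0% and 35.4% of all genes. Neighbours of the same cluster are not independent of each other.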
